A study of Mus musculus with 30 samples.

Results

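Cancer-associated fibroblasts and pericytes are the connective-tissue and vessel-wall cells of a tumour, and they were described here through 10 of their genes, Pdgfra, Pdgfrb, Fap, Thy1, Postn, Dcn, Lum, Fn1, Acta2 and Rgs5. The genes were chosen by symbol as markers of fibroblasts, myofibroblasts and pericytes, collagens left out, and are 10 of the 21841 genes in the count table. All 10 passed the filter on low counts and were among the 13663 genes tested. The data are bulk RNA sequencing of whole mammary tumours of MMTV-PyMT mice (FVB/N-Tg(MMTV-PyVT)634Mul/J, labelled WT), in which the mouse mammary tumour virus promoter drives an oncogene in mammary epithelium, so that fibroblasts and pericytes are not the cells the transgene was built to transform. The 30 libraries were 6 groups of 5 tumours, from 5 mice a group by the text of the study, which received vehicle, gemcitabine, 5-fluorouracil (5-FU), or KCL-HO-1i by itself and beside each drug (written KCL-HO-1i/5-FU below, or KCL-HO-1i/gemcitabine). The compound KCL-HO-1i inhibits heme oxygenase-1, an enzyme that breaks down heme, and the other agents are cytotoxic drugs. By the labels the mice were treated for 72 hours by intraperitoneal injection, with 64 mg/kg of gemcitabine every 7 days, 40 mg/kg of 5-FU every 4 days and 25 µmol/kg of KCL-HO-1i each day. The text of the study differs from the labels in the time, which it gives as shorter, and in the dose of gemcitabine, which it gives as lower.

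Fibroblasts build and remodel the matrix between cells. In tumours they respond to platelet-derived growth factor and transforming growth factor beta, and a share of them takes on the actin bundles of a myofibroblast. Pericytes wrap the endothelium of small vessels, depend on platelet-derived growth factor B from it, and share Pdgfrb with fibroblasts, so that few of these genes mark 1 cell type alone. Acta2 in addition marks vascular smooth muscle and the myoepithelial cells of the mammary gland, and Thy1 is also made by T cells of the mouse.

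The total count per library ran from 10067577 to 13622264, and the 10 genes together held between 0.0114% and 0.372% of it. Mitochondrial genes held 9.69% of it in KCL-HO-1i replicate 4. In the other libraries they held from 1.44% to 4.54%. The luminal epithelial genes that mark these tumours were abundant in all 30 libraries, with Epcam between 590.0 and 1502 CPM (reads scaled by the effective library size so that depth is comparable). Levels below are CPM of each library in the order of its replicate number. Differences are log2 fold changes of edgeR with a standard error (SE), taken as their size over the square root of the F statistic. Confidence intervals are a normal approximation from that SE, and can be narrower than the F test implies. Of 60 sets of 5 values, 1 for each gene in each group, 22 had a highest value that stood far above the other libraries of its group (a gap to the next over 0.71 of the range of the group, a limit passed in about 1 set in 20 where values are normally distributed and independent, while these CPM are skewed and the genes correlate), and 16 of these lay in KCL-HO-1i/5-FU replicate 3 or KCL-HO-1i/gemcitabine replicate 2. Both carry the same number, 70, in the labels, as do KCL-HO-1i replicates 2 and 3. In each label a suffix follows the number, and the full labels of all 30 libraries differ. Mouse code below means the number without the suffix. What the number stands for is not stated, so libraries that share it are not taken to come from 1 mouse. Fold changes that rest on either library are also given without it. In bulk tumour RNA, fewer cells of a type and less RNA per cell cannot be told apart.

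Per kilobase of exonic sequence, the mean level in vehicle tumours was highest for Postn, at 13.6 ± 9.91 CPM per kb (SD, n = 5). Next came Rgs5 at 7.2 ± 1.97 and Acta2 at 6.05 ± 1.25, then Lum at 4.01 ± 2.92, Fn1 at 3.82 ± 1.23 and Dcn at 2.87 ± 1.84. Pdgfrb at 2.08 ± 0.766, Thy1 at 1.98 ± 0.641 and Pdgfra at 1.28 ± 0.74 were lower, and Fap at 0.273 ± 0.132 was the lowest. The ranges over the 5 vehicle libraries overlapped between every pair of neighbours in this order, while all 5 values of Fap lay below all 5 of Pdgfrb, Thy1, Postn, Dcn, Fn1, Acta2 and Rgs5. In Lum and Pdgfra vehicle replicate 3 was near 0, with 0 reads of Lum and 11 of Pdgfra. That library was the lowest of vehicle for all of the 10 genes but Pdgfrb and Rgs5. Without it the log2 fold changes of KCL-HO-1i alone against vehicle were smaller for all but these 2 genes. Pdgfra was then at 0.90 in place of 1.22 and Postn at 0.92 in place of 1.23.

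Averaged over the 3 backgrounds in which KCL-HO-1i was given (alone against vehicle, with 5-FU against 5-FU, and with gemcitabine against gemcitabine), the log2 fold changes of the 10 genes ran from 0.53 for Rgs5 to 2.03 for Fap. Their median was 1.43, against -0.0007 over all genes tested. In edgeR 0 of 10 passed an adjusted p under 0.05, where 0.0586% of all genes (8) did. At an unadjusted p under 0.05, 9 of the 10 were higher, all but Rgs5, where 13.7% of all genes were higher and 9.22% lower. The smallest adjusted p of the 10 were 0.0532 for Thy1, 0.0548 for Fap and 0.0562 for Pdgfra in edgeR. DESeq2 called 8 of the 10 at an adjusted p under 0.05, all but Fn1 and Rgs5, and 8.34% of all genes. Limma-voom with sample weights called 0 of the 10 and 1.92% of all genes, with 6 of the 10 and 20.8% of all genes at an unadjusted p under 0.05. With 1 library left out, edgeR called between 0 and 7 of the 10 at the adjusted threshold. It called 7 without gemcitabine replicate 5 (beside 1130 of all genes) or KCL-HO-1i/5-FU replicate 5 (514 of all genes). Without KCL-HO-1i/5-FU replicate 4 it called 5 (840). The calls were 4 without KCL-HO-1i replicate 5 (478) or KCL-HO-1i/gemcitabine replicate 4 (465). They were 3 without KCL-HO-1i replicate 1 (467) and 2 without 5-FU replicate 5 (573). Without both high libraries 6 of the 10 (Pdgfra, Fap, Thy1, Dcn, Lum and Acta2) had an unadjusted p under 0.05. The share of all genes there stands beside the gene lists below. Without the 4 libraries of mouse code 70 there were 2, Thy1 and Acta2, beside 1549 of all genes in either direction. With the mouse code as a covariate there was 1, Thy1, beside 1370 of all genes in either direction.

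**Figure D1:**
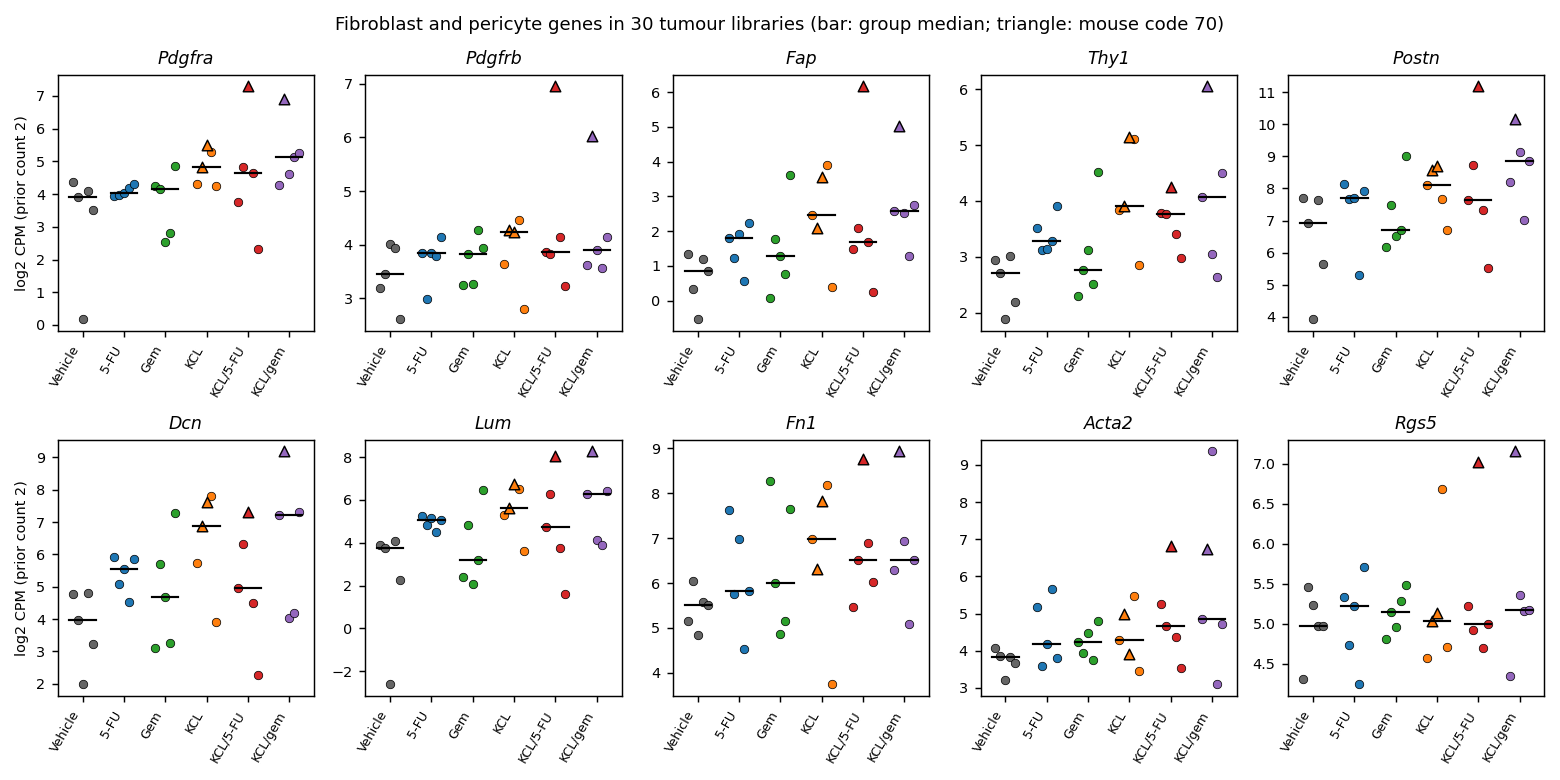
Level of each of the 10 genes in all 30 libraries (vertical axis, log2 CPM with a prior count of 2; horizontal axis, 6 treatment groups of 5 libraries; points are libraries, bars are group medians, triangles are the 4 libraries of mouse code 70). Triangles of both KCL-HO-1i combinations lie at the top of most panels, and in Acta2 the highest point is KCL-HO-1i/gemcitabine replicate 3, at 658 CPM.

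The PDGF receptors Pdgfra and Pdgfrb, which receive platelet-derived growth factor on fibroblasts and on pericytes, reached their highest levels in the 2 high libraries. Pdgfra was at 20.3, 14.9, 0.967, 16.9 and 11.2 CPM in vehicle and 15.2, 15.7, 16.1, 18 and 19.5 in 5-FU. It was at 19.7, 28.2, 44.6, 38.5 and 18.6 with KCL-HO-1i alone, 13.3, 28, 157, 24.9 and 4.85 with KCL-HO-1i/5-FU and 19.2, 119.7, 24.3, 34.7 and 38.3 with KCL-HO-1i/gemcitabine. The gemcitabine libraries ran from 5.68 to 29.1 CPM. The 5 libraries of 5-FU lay within the vehicle range, 4 of the 5 of KCL-HO-1i/gemcitabine lay above it, and the 5 of KCL-HO-1i overlapped it with 2. The log2 fold change against vehicle was 1.22 ± 0.69 with KCL-HO-1i alone, 1.83 ± 0.70 with KCL-HO-1i/5-FU and 1.88 ± 0.70 with KCL-HO-1i/gemcitabine, with adjusted p of 0.631, 0.184 and 0.133 in edgeR. Leaving out KCL-HO-1i/5-FU replicate 3, the value of that combination was 0.47, and without KCL-HO-1i/gemcitabine replicate 2 that of the other was 1.17.

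Pdgfrb was at 9.02, 10.8, 15.9, 15.2 and 5.95 CPM in vehicle, 14.3, 14, 124, 17.6 and 9.24 in KCL-HO-1i/5-FU and 12.1, 65.2, 14.9, 11.8 and 17.4 in KCL-HO-1i/gemcitabine. In each combination 1 library stood apart, and 3 of the other 4 lay within the vehicle range. The 5-FU, gemcitabine and KCL-HO-1i libraries ran from 7.79 to 17.6 CPM, 9.31 to 19.2 CPM and 6.85 to 21.8 CPM, overlapping vehicle as well. In KCL-HO-1i/5-FU the log2 fold change was 1.65 ± 0.58 (adjusted p 0.155 in edgeR) and was 0.28 without replicate 3. Pdgfrb was the 1 gene of the 10 with an unadjusted p under 0.05 between KCL-HO-1i/5-FU and the inhibitor alone, at a log2 fold change of 1.18 ± 0.57 and an adjusted p of 0.288 in edgeR, where 7.47% of all genes were higher at that threshold. Without KCL-HO-1i/5-FU replicate 3 it was -0.19.

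Fap, a serine protease on the surface of activated fibroblasts, had the largest average difference of the 10 in edgeR with all libraries, but not without KCL-HO-1i/5-FU replicate 3, where it was 1.16 against 1.47 for Lum, nor in limma-voom, where it was 0.94 against 1.29. It was at 2.35, 1.09, 0.528, 2.12 and 1.64 CPM in vehicle, 3.35, 2.19, 3.61, 1.3 and 4.52 in 5-FU and 0.898, 3.26, 2.29, 1.55 and 12.2 in gemcitabine. With KCL-HO-1i it was at 5.38, 4.1, 11.6, 14.7 and 1.15, with KCL-HO-1i/5-FU at 2.64, 4.08, 72, 3.04 and 1.02 and with KCL-HO-1i/gemcitabine at 5.86, 32.4, 5.54, 2.26 and 6.53. In each of these 3 groups 4 of 5 libraries exceeded the highest vehicle value, and the fifth (replicate 5 of KCL-HO-1i and of KCL-HO-1i/5-FU, replicate 4 of KCL-HO-1i/gemcitabine) lay within it. The log2 fold change against vehicle was 2.25 ± 0.97 with KCL-HO-1i alone, 3.41 ± 1.00 with KCL-HO-1i/5-FU and 2.76 ± 0.98 with KCL-HO-1i/gemcitabine, with adjusted p in edgeR of 0.462, 0.119 and 0.12. DESeq2 gave adjusted p of 0.0166 and 0.0316 in the combinations. Without its replicate 3, KCL-HO-1i/5-FU was at 0.80, and without its replicate 2, KCL-HO-1i/gemcitabine was at 1.68. KCL-HO-1i alone was at 1.84 without its replicate 4, no longer with an unadjusted p under 0.05 in edgeR. In the average the value was 2.03 ± 0.55 with all libraries and 0.80 without both.

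Thy1, a cell-surface glycoprotein of fibroblasts, had the smallest adjusted p of the 10 in the average in edgeR, while in DESeq2 that of Fap was smaller (0.00497 against 0.008). It was at 7.52, 6.39, 3.52, 7.89 and 4.39 CPM in vehicle and 11.2, 8.52, 8.69, 9.61 and 14.9 in 5-FU. The gemcitabine values were 4.74, 6.59, 8.51, 5.51 and 22.7, and those of KCL-HO-1i were 14.2, 14.9, 35.4, 34.3 and 7.09. In KCL-HO-1i/5-FU Thy1 was at 13.6, 13.5, 18.8, 10.5 and 7.75 and in KCL-HO-1i/gemcitabine at 16.7, 66.4, 8.1, 6.03 and 22.5. All 5 libraries of 5-FU alone lay above all 5 of vehicle, which held for Thy1 and Lum among the 10 genes and for 0.315% of all genes, although the log2 fold change of Thy1 was 0.83 ± 0.52 with an adjusted p of 0.999 in edgeR. In each KCL-HO-1i group 4 of 5 libraries exceeded every vehicle library, and 1 did not. The log2 fold change against vehicle was 1.83 ± 0.53 with KCL-HO-1i alone, 1.11 ± 0.53 with KCL-HO-1i/5-FU and 2.01 ± 0.54 with KCL-HO-1i/gemcitabine, with adjusted p in edgeR of 0.333, 0.272 and 0.0828. DESeq2 called Thy1 in KCL-HO-1i (adjusted p 0.0456) and KCL-HO-1i/gemcitabine (0.00825), and limma-voom in the latter (0.0293). The value of KCL-HO-1i/gemcitabine was, with its replicate 2 left out, 1.14. Without both high libraries its average was 0.79, against 1.14 ± 0.30 with them. The summed level of 7 T cell markers, cells that also make Thy1, lay between 0.792 and 7.21 CPM in vehicle, 4.77 and 9.86 in 5-FU, 2.84 and 21.8 in gemcitabine, 3.37 and 10.6 in KCL-HO-1i, 3.21 and 14.7 in KCL-HO-1i/5-FU and 3.88 and 10.1 in KCL-HO-1i/gemcitabine. Its r with Thy1 over the 30 libraries was 0.45, in 5-FU the median log2 fold change of these genes was 1.08, and the part of T cells in the Thy1 values was not tested.

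The secreted matrix proteins had the largest median difference of the 3 roles in each KCL-HO-1i group against vehicle. They are Postn, a matricellular protein of activated fibroblasts, Dcn and Lum, small leucine-rich proteoglycans that bind collagen fibrils, and Fn1, the fibronectin that cells bind through integrins. The median log2 fold change of the 4 genes was 2.16 with KCL-HO-1i alone, 2.13 with KCL-HO-1i/5-FU and 2.74 with KCL-HO-1i/gemcitabine, where the median over all genes was -0.01, 0.01 and 0.02. The 4 surface genes were at 1.53, 1.74 and 1.94. Acta2 and Rgs5 had medians of 0.64, 1.14 and 2.19. Without KCL-HO-1i/5-FU replicate 3 the medians in that combination were 0.94 for the matrix genes, 0.64 for the surface genes and 0.39 for Acta2 and Rgs5. Those of the other combination were, with KCL-HO-1i/gemcitabine replicate 2 left out, 1.93, 1.15 and 1.88. EdgeR called 0 of these genes at the adjusted threshold in these comparisons, as it did 0% of all genes.

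Dcn was at 27.2, 15.5, 3.78, 28.1 and 9.22 CPM in vehicle, 61.1, 34, 46.8, 23.1 and 58.2 in 5-FU and 8.49, 51.8, 25.8, 9.47 and 156 in gemcitabine. In KCL-HO-1i it was at 52.9, 118, 197, 224 and 15, and replicates 3 and 4 exceeded every library without the inhibitor. KCL-HO-1i/5-FU gave 30.8, 80.3, 159, 22.5 and 4.7 and KCL-HO-1i/gemcitabine gave 149, 581, 16.1, 18 and 159. Both combinations held libraries within the vehicle range and libraries far above it, and KCL-HO-1i/5-FU replicate 5, at 4.7, was the second lowest of all 30. The median of KCL-HO-1i/gemcitabine was 9.6 times that of vehicle, that of KCL-HO-1i 7.65 times, that of 5-FU 3.02 times and that of KCL-HO-1i/5-FU 1.99 times. In log2 fold change Dcn was at 2.86 ± 0.97 with KCL-HO-1i alone, 1.83 ± 0.94 with KCL-HO-1i/5-FU and 3.46 ± 0.99 with KCL-HO-1i/gemcitabine, with adjusted p of 0.351, 0.309 and 0.0869 in edgeR. DESeq2 and limma-voom gave adjusted p of 0.00805 and 0.0311 for the last. Without KCL-HO-1i/gemcitabine replicate 2 it was 2.33, and without KCL-HO-1i/5-FU replicate 3 that of KCL-HO-1i/5-FU was 1.05.

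Lum was at 14.6, 13.2, 0, 16.7 and 4.69 CPM in vehicle, 37.7, 27.8, 35.8, 22.5 and 33.8 in 5-FU and 5.14, 27.9, 4.03, 8.92 and 89.3 in gemcitabine. With KCL-HO-1i it was at 39.7, 48.9, 106, 91.5 and 12, with KCL-HO-1i/5-FU at 26.8, 77.8, 262, 13.2 and 2.9 and with KCL-HO-1i/gemcitabine at 76.23, 306, 17.4, 14.5 and 83.9. All 5 libraries of 5-FU lay above all 5 of vehicle, with the log2 fold change at 1.68 ± 1.02 and the adjusted p at 0.999 in edgeR. The groups given KCL-HO-1i each overlapped vehicle, by 1 library with KCL-HO-1i alone, 2 with KCL-HO-1i/5-FU and 1 with KCL-HO-1i/gemcitabine. The log2 fold changes were 2.60 ± 1.04, 2.96 ± 1.06 and 3.34 ± 1.07, with adjusted p of 0.417, 0.161 and 0.1 in edgeR. Without the high library of each combination they were 1.62 and 2.26. Dcn and Lum are neighbours on chromosome 10 in the RefSeq annotation of GRCm38.p6 (97479500 to 97518163 and 97565501 to 97572703), 47337 bases apart, and their log2 CPM correlated with a Pearson r of 0.90 over the 30 libraries.

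Postn was at 208, 120.5, 15, 197 and 49.8 CPM in vehicle. In 5-FU it ran from 39.7 to 279 CPM and in gemcitabine from 72.5 to 516 CPM. With KCL-HO-1i it was at 274, 384, 416, 205 and 104, with KCL-HO-1i/5-FU at 200.1, 428, 2329.9, 162 and 45.6 and with KCL-HO-1i/gemcitabine at 294, 1138, 567, 128 and 462. The library of KCL-HO-1i/5-FU replicate 3 was 11.6 times the median of its group, and 3 of the other 4 of that group lay within the vehicle range. In KCL-HO-1i/gemcitabine 4 of 5 libraries lay above every vehicle library. The log2 fold changes were 1.23 ± 0.81 with KCL-HO-1i alone, 2.42 ± 0.84 with KCL-HO-1i/5-FU and 2.13 ± 0.83 with KCL-HO-1i/gemcitabine, with adjusted p of 0.719, 0.149 and 0.148 in edgeR, and limma-voom gave 0.0313 for the last. Without its replicate 3 KCL-HO-1i/5-FU was at 0.82, and without its replicate 2 KCL-HO-1i/gemcitabine was at 1.60.

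Fn1 was at 35.3, 66.4, 28.4, 47.3 and 45.4 CPM in vehicle and ran from 22.8 to 197 CPM in 5-FU, from 28.9 to 309.7 CPM in gemcitabine, from 13.2 to 292 CPM with KCL-HO-1i alone, from 43.9 to 435 CPM with KCL-HO-1i/5-FU and from 33.8 to 489 CPM with KCL-HO-1i/gemcitabine. Fn1 was high in gemcitabine replicate 1, at 309.7 CPM, where Postn (72.5 CPM), Dcn (8.49 CPM), Lum (5.14 CPM) and Fap (0.898 CPM) were within the vehicle range. It was also lower than every vehicle library in KCL-HO-1i replicate 5 and in 5-FU replicate 4. The log2 fold changes were 1.73 ± 0.80 with KCL-HO-1i alone, 1.76 ± 0.80 with KCL-HO-1i/5-FU and 1.87 ± 0.80 with KCL-HO-1i/gemcitabine, with adjusted p of 0.499, 0.25 and 0.186 in edgeR. With KCL-HO-1i/5-FU replicate 3 left out the former combination was at 0.84, and with KCL-HO-1i/gemcitabine replicate 2 left out the latter was at 0.85. Neither had an unadjusted p under 0.05, nor had KCL-HO-1i alone without its replicate 4, at 1.31. In the average Fn1 was at 0.93 ± 0.45 (adjusted p 0.213), and at 0.29 without both high libraries.

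**Figure D2:**
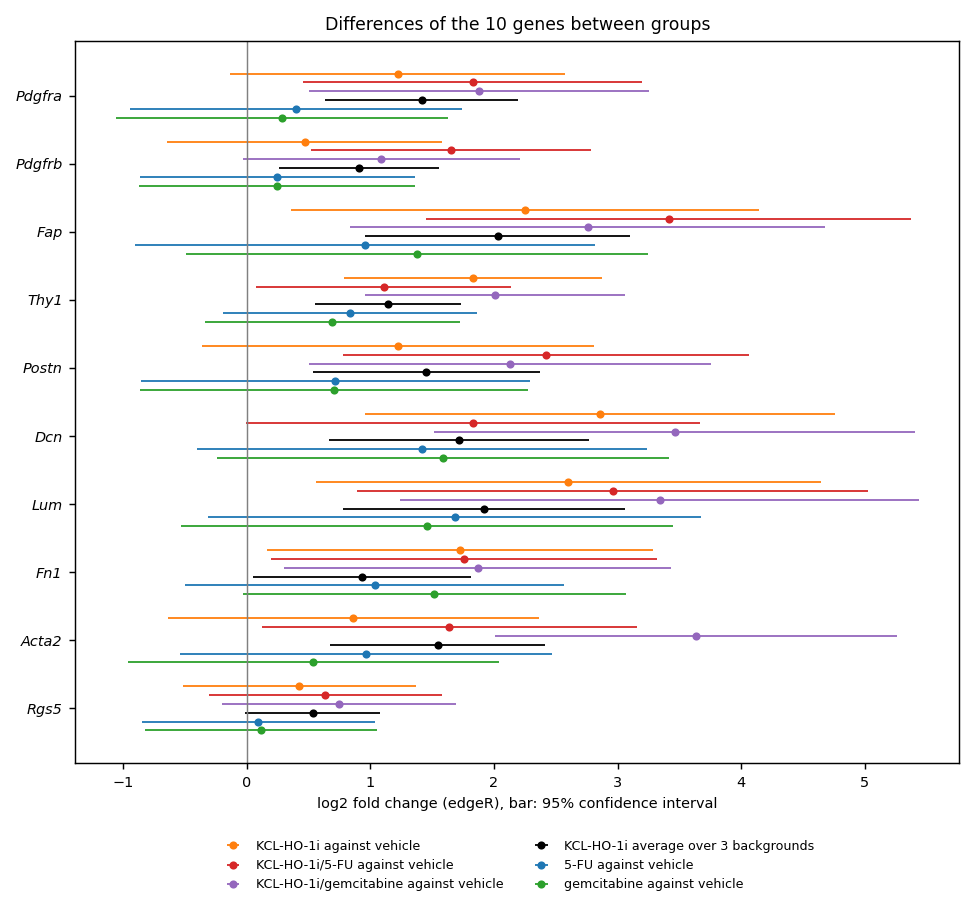
Log2 fold change of each of the 10 genes (points, edgeR) with its 95% confidence interval (bars) for 5 treatments against vehicle and for the KCL-HO-1i average (horizontal axis, log2 scale; vertical axis, genes). All 60 points lie above 0, and the point of Acta2 in KCL-HO-1i/gemcitabine, with an interval from 2.01 to 5.26, is the farthest from it.

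Acta2, the smooth muscle actin of myofibroblasts, vascular smooth muscle and myoepithelium, had its highest level in another library than the other genes. It was at 16.5, 14.2, 9.06, 14 and 12.6 CPM in vehicle, 35.8, 11.8, 18, 50.3 and 13.8 in 5-FU and 18.5, 15.3, 22.1, 13.2 and 27.5 in gemcitabine. With KCL-HO-1i it was at 19.2, 31.4, 15, 44.5 and 10.9, with KCL-HO-1i/5-FU at 38, 25.1, 112, 20.7 and 11.5 and with KCL-HO-1i/gemcitabine at 29, 107, 658, 8.37 and 26.1. The value of KCL-HO-1i/gemcitabine replicate 3, from 7960 reads, was 22.7 times the median of its group, and in that library Pdgfrb, Dcn and Rgs5 lay within the vehicle range. The other 6 genes lay above it there, Postn at 567 CPM, Fn1 at 123, Pdgfra at 24.3, Lum at 17.4, Thy1 at 8.1 and Fap at 5.54. In each combination 4 of 5 libraries lay above every vehicle library. Acta2 was at a log2 fold change of 0.86 ± 0.77 with KCL-HO-1i alone, 1.64 ± 0.78 with KCL-HO-1i/5-FU and 3.64 ± 0.83 with KCL-HO-1i/gemcitabine, with adjusted p of 0.837, 0.27 and 0.0822 in edgeR. DESeq2 gave 0.000256 and limma-voom 0.13 for the last. Without replicate 3 it was 1.65, with an adjusted p of 0.128 in edgeR, and the average was 0.88 against 1.55 ± 0.44 with all libraries. Without KCL-HO-1i/5-FU replicate 3 the value of KCL-HO-1i/5-FU was 0.84. With the mouse code as a covariate Acta2 was at -2.70 in KCL-HO-1i alone and at -0.90 in KCL-HO-1i/5-FU. That fit reaches vehicle only through vehicle replicate 1, the 1 vehicle library whose code, 84, occurs in another group.

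The genes most like Acta2 over the 30 libraries were Cnn1 (r = 0.98), Myh11 (r = 0.91) and Myl9 (r = 0.91), which encode calponin, the heavy chain of smooth muscle myosin and a light chain that regulates it. Without KCL-HO-1i/gemcitabine replicate 3 these were 0.96, 0.90 and 0.84 over 29 libraries. In KCL-HO-1i/gemcitabine replicate 3 Cnn1 was at 112 CPM against a median of 0.54 over all libraries and 10.7 in the next highest. Myh11 was at 55.7 CPM (median 2.3) and Myl9 at 159 CPM (median 11.1). Tagln and Actg2, also of the list of 12 contractile genes, were highest in the same library, at 267 and 35.9 CPM, so that 5 of the 12 peaked there. Des, the desmin of muscle and pericytes, did not, at 6.86 CPM, and peaked at 730.4 CPM in KCL-HO-1i/gemcitabine replicate 2. In KCL-HO-1i/gemcitabine replicate 3 the summed level of the 7 myoepithelial markers was 435 CPM, within the 109.7 to 452 CPM of vehicle. The sum does not speak for each marker. Of the 7, 1 was highest in this library, and 2 each in 5-FU replicate 4 and KCL-HO-1i/5-FU replicates 1 and 3. The myoepithelial marker with the smallest p in the average was Oxtr, at 0.85 ± 0.30 (adjusted p 0.102 in edgeR). The summed luminal markers were at 3698 CPM in KCL-HO-1i/gemcitabine replicate 3, below the 5091 to 6202 CPM of vehicle. The part of myoepithelial and luminal cells in the Acta2 value was not tested.

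The promoters of Acta2 and Myl9 are printed because the CArG box, the site bound by serum response factor, is known to drive smooth muscle genes, and that of Postn to contrast a matrix gene with them. Each line gives the 250 bases before the start in RefSeq for GRCm38.p6, 5′ to 3′ on the strand of the gene, with matches in capitals. Acta2 lies at chr19:34255374-34255623 on the minus strand, Myl9 at chr2:156775214-156775463 on the plus strand and Postn at chr3:54360857-54361106 on the plus strand, the latter 1 of 2 starts listed. The annotated Acta2 gene extends to 34255585, so part of its window lies within the gene.
Acta2: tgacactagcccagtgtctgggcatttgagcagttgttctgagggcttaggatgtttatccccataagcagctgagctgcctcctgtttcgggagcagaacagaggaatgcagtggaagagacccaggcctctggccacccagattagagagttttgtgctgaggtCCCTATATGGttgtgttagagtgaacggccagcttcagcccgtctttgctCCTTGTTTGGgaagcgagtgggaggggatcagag
Myl9: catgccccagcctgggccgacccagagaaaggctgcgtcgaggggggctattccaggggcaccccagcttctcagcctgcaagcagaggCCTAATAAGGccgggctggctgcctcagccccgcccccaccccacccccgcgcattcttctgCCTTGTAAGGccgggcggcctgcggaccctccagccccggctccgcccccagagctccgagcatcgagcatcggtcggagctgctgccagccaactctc
Postn: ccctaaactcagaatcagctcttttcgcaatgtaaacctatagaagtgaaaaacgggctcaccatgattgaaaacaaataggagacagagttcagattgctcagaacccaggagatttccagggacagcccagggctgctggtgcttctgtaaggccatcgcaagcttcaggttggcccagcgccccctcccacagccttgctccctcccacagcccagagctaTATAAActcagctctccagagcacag
The capitals in Acta2 and Myl9 mark CArG boxes in which at most 1 of the 6 middle bases was G or C, a form chosen after the sequences were read, and those in Postn mark the TATAAA motif. The promoter of Acta2 held 2 such boxes, ending 75 and 25 bases before the start, each with 1 G or C. Myl9 held 2, ending 152 and 90 bases before it, and the first matched the strict form, with no G or C there. Of 32851 promoter windows of the same length, 8.59% held the looser box on either strand and 1.47% the strict form. Postn held TATAAA ending 21 bases before the start shown, as 12.4% of windows did on either strand. The window of its other start, at 54359267, where the annotated gene begins, held none. Neither form of the CArG box was found in the listed windows of Cnn1, Postn, Pdgfra and Rgs5, and a match is a description of the letters only. Promoters were listed for 4 of the 10 genes, Acta2, Pdgfra, Postn and Rgs5.

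Rgs5, a regulator of G protein signalling enriched in pericytes, had the smallest average difference of the 10. It was at 19.7, 43.9, 37.6, 31.2 and 31.3 CPM in vehicle and ran from 18.7 to 52.1 CPM in 5-FU and from 27.9 to 44.6 CPM in gemcitabine. With KCL-HO-1i it was at 23.5, 32.6, 35, 103 and 26.1, with KCL-HO-1i/5-FU at 37.1, 30.03, 129, 25.7 and 31.9 and with KCL-HO-1i/gemcitabine at 20.2, 142, 41, 35.6 and 36. In each of these groups 1 library was above 100 CPM and the other 4 lay within the vehicle range. The log2 fold changes against vehicle were 0.42 ± 0.48, 0.63 ± 0.48 and 0.75 ± 0.48, with adjusted p of 0.896, 0.511 and 0.421 in edgeR, and limma-voom gave -0.063 for KCL-HO-1i. Without its 1 high library they were -0.17, -0.071 and 0.0074. The ratio of group medians to vehicle was 1.04, 1.02 and 1.15. The summed level of the 10 endothelial markers was highest in the same 3 libraries, at 351 CPM in KCL-HO-1i replicate 4, 438 for KCL-HO-1i/5-FU replicate 3 and 595 for KCL-HO-1i/gemcitabine replicate 2, against 74.7 to 115 in vehicle, and their part in the Rgs5 values was not tested.

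Against vehicle, 5-FU and gemcitabine alone gave no gene of the 10 an unadjusted p under 0.05 in edgeR, where 1.65% and 2.05% of all genes were higher at that threshold, nor an adjusted p under 0.05 in edgeR, DESeq2 or limma-voom. The log2 fold changes in 5-FU ran from 0.092 for Rgs5 to 1.68 for Lum, and those in gemcitabine from 0.11 for Rgs5 to 1.58 for Dcn. With the mouse code as a covariate 5 of the 10 values in 5-FU and 8 of the 10 in gemcitabine were below 0. Acta2 was at -2.01 and -2.35 and Dcn in gemcitabine at -0.59. These values rest on vehicle replicate 1 alone, since no other vehicle library shares its code with another group. In a fit of only the groups compared, some genes had an unadjusted p under 0.05, all higher than in vehicle. They were Thy1, Dcn, Lum and Acta2 in 5-FU and Fn1 and Acta2 in gemcitabine. The share of all genes in those fits is not given here, so these calls are not set against a background. In gemcitabine replicate 5, the library far above its group for Fap, Thy1, Postn and Lum, these genes were at 12.2, 22.7, 516 and 89.3 CPM. Without it the log2 fold change of Dcn in gemcitabine was 0.52 and that of Fap 0.38.

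KCL-HO-1i and the combinations were set against vehicle to describe the inhibitor with and without chemotherapy. At an unadjusted p under 0.05, 5 of the 10 genes were higher in KCL-HO-1i (Dcn, Fap, Fn1, Lum and Thy1), where 7.36% of all genes were. In KCL-HO-1i/5-FU 8 of the 10 were, all but Dcn and Rgs5, against 9.79% of all genes, and in KCL-HO-1i/gemcitabine 8, all but Pdgfrb and Rgs5, against 11.7%. EdgeR called 0 of the 10 at the adjusted threshold in these 3 comparisons, as 0% of all genes. None of the 10 was lower at the unadjusted one, where 2.08%, 7.84% and 8.04% of all genes were. The counts of all genes that follow take both directions together, unlike the shares above. Without KCL-HO-1i/5-FU replicate 3 the 8 became 0, where 1326 of all genes had such a p in either direction. Without KCL-HO-1i/gemcitabine replicate 2 the 8 of the other combination became 4 (1910 of all genes). The 5 of KCL-HO-1i became 3 without KCL-HO-1i replicate 3 (997), KCL-HO-1i replicate 4 (634) or vehicle replicate 3 (1056). Without vehicle replicate 3 or 5 the 8 of KCL-HO-1i/5-FU became 5 (1670 and 1895 of all genes). In the fit that has the mouse code as a covariate all of the 5, 8 and 8 became 0, beside 149, 195 and 189 of all genes. The codes are spread unevenly over the groups, and only vehicle replicate 1 shares its code with another group. That fit thus compares vehicle through 1 library, and cannot tell code from treatment for the others. At the adjusted threshold DESeq2 called 1 of the 10 in KCL-HO-1i (0.871% of all genes), 1 with KCL-HO-1i/5-FU (2.99%) and 5 with KCL-HO-1i/gemcitabine (6.46%), and limma-voom 0, 0 and 4 (9.59% of all genes in the last). Libraries without any overlap, all 5 above all 5 of vehicle, were found for 0 of the 10 genes in gemcitabine (0.198% of all genes) or KCL-HO-1i alone (0.747%), nor for any in the combination with 5-FU (1.53%) or with gemcitabine (2.2%).

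Adding KCL-HO-1i to a drug was then compared with the drug alone. Against 5-FU, 4 of the 10 genes were higher in KCL-HO-1i/5-FU at an unadjusted p under 0.05 (Pdgfra, Pdgfrb, Fap and Postn), where 6.18% of all genes were. For these 4 the medians of the combination were 1.54, 1.01, 0.91 and 0.966 times those of 5-FU. For Fap and Postn the median of the combination was thus below that of 5-FU, and without KCL-HO-1i/5-FU replicate 3 the 4 became 0. Against gemcitabine, 3 were higher in KCL-HO-1i/gemcitabine (Pdgfra, Thy1 and Acta2), where 6.94% of all genes were. Their medians were 1.963, 2.53 and 1.56 times those of gemcitabine, and those of Dcn and Lum were 5.76 and 8.54 times. The adjusted p of the 10 genes in edgeR ranged upward from 0.354 (Fap) against 5-FU and from 0.282 (Acta2) against gemcitabine, and DESeq2 called Acta2 in the latter (adjusted p 0.0183), with 0.329% of all genes. Without KCL-HO-1i/gemcitabine replicate 2 the 3 became 1, Acta2, and without replicate 3 of that group Acta2 was at a log2 fold change of 1.11, in place of 3.10, while without KCL-HO-1i/5-FU replicate 3 the 3 became 6. For both drugs the share of all genes in the fits with a library left out is not given here. The changed counts are thus not set against a background.

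Adding a drug to KCL-HO-1i gave Pdgfrb, above, for 5-FU and Acta2 for gemcitabine. Acta2 was at a log2 fold change of 2.78 ± 0.80 between KCL-HO-1i/gemcitabine and KCL-HO-1i (adjusted p 1 in edgeR), and 1.2% of all genes were higher there at an unadjusted p under 0.05. Without KCL-HO-1i/gemcitabine replicate 3 it was 0.80. In the interaction, which asks whether the effect of KCL-HO-1i differed with and without a drug, edgeR called 0 of the 10 and 0% of all genes at the adjusted threshold. At an unadjusted p, Thy1 was lower for 5-FU (-1.56 ± 0.74), where 4.03% of all genes were higher and 4.51% lower, and Acta2 higher for gemcitabine (2.24 ± 1.08), where 0.644% were higher. Without KCL-HO-1i replicate 3 or 4 the value of Thy1 was -1.28 or -1.31 and no longer under that threshold, and without KCL-HO-1i/gemcitabine replicate 3 that of Acta2 was 0.26. Without KCL-HO-1i replicate 3 Acta2 was at 2.08, also not under it. The log2 fold change of Dcn in the 5-FU interaction was -2.44 ± 1.30, with a 95% confidence interval from -4.99 to 0.10, and without KCL-HO-1i/5-FU replicate 3 Dcn, Fap and Thy1 were lower in it at an unadjusted p under 0.05, Dcn at -3.22. Without KCL-HO-1i/gemcitabine replicate 2, Thy1 and Fn1 were lower at that threshold in the gemcitabine interaction, at -1.37 and -2.38. The share of all genes in the fits with a library left out is not given here either.

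**Figure D3:**
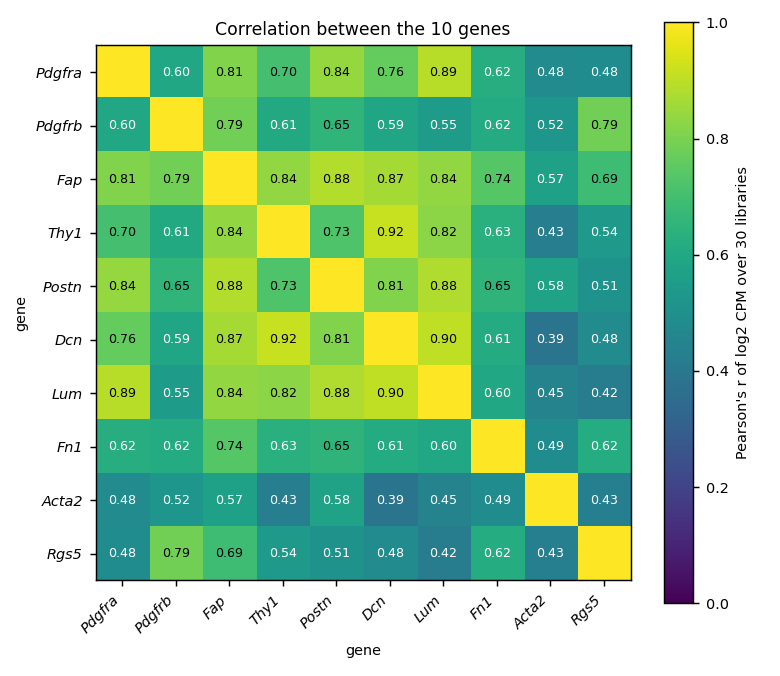
Pearson's r of log2 CPM between each pair of the 10 genes over the 30 libraries (rows and columns, genes; colour and printed value, r). Values run from 0.39 for Dcn and Acta2 to 0.92 for Thy1 and Dcn, and the rows of Acta2 and Rgs5 are the lowest.

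Among themselves the 10 genes moved together over the 30 libraries. The 45 pairwise Pearson r of log2 CPM ran from 0.39 (Dcn and Acta2) to 0.92 (Thy1 and Dcn) with a median of 0.62, and with the group means removed from 0.26 to 0.90 with a median of 0.60. Without the 2 high libraries the median was 0.49 over 28 libraries and the lowest 0.08. Fap had the highest mean r with the other 9, at 0.78, and Acta2 the lowest, at 0.48, followed by Rgs5 at 0.55. These values describe 30 tumours that share treatments and mouse codes.

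The genes outside the 10 whose log2 CPM correlated most with each over the 30 libraries were then listed. The closest to Pdgfra and Lum was Loxl1, which helps to cross-link elastin (r = 0.92 and 0.97). Those to Postn were Mmp2, a gelatinase (r = 0.95), and Bgn, a matrix proteoglycan (r = 0.95). Dcn was closest to Col3a1, a fibrillar collagen (r = 0.97), and, as was Thy1, among the closest to C1s1, of the complement cascade (r = 0.97 and 0.93). Fap was closest to Bmper, which binds bone morphogenetic proteins (r = 0.97), and Fn1 to Epb41l2 (r = 0.91) and the intermediate filament Vim (r = 0.90). The closest to Rgs5 were Ptprm, Esam and Kdr (r = 0.92, 0.92 and 0.91), of which Esam is an endothelial adhesion molecule and Kdr a receptor of vascular endothelial growth factor, and Erg, an endothelial transcription factor, was among those of Pdgfrb (r = 0.88).

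Genes beside the 10 were described by lists. Of 27 fibroblast genes tested, 21 had higher levels on average with KCL-HO-1i at an unadjusted p under 0.05, against 13.7% of all genes, with a median log2 fold change of 1.31, and 0 of 27 were called at the adjusted threshold. The 4 with the smallest p were Serpinf1, a secreted inhibitor of vessel growth, at a log2 fold change of 1.75 ± 0.43, Prrx1, a mesenchymal transcription factor, at 2.11 ± 0.54, Fstl1 at 1.63 ± 0.44 and Pdpn, podoplanin, at 1.46 ± 0.41. Of 12 contractile genes 8 were higher, among them Cnn1 at 2.73 ± 0.72, Myh11 at 1.78 ± 0.51, Synpo2 at 1.9 ± 0.59 and Tpm2, a tropomyosin, at 1.69 ± 0.53. Of 13 pericyte and mural genes 6 were higher and 1 lower, with a median of 0.39, and the smallest p belonged to Des at 2.85 ± 0.79, which muscle also makes, Mcam at 0.39 ± 0.12, Tbx2 at 1.78 ± 0.57 and Heyl, a Notch target, at 0.92 ± 0.30. Of 10 genes of inflammatory fibroblasts 4 were higher, the chemokines Cxcl14 at 1.16 ± 0.33 and Cxcl12 at 0.90 ± 0.39, Ly6c1 at 1.37 ± 0.43 and complement C3 at 1.09 ± 0.47. Without both high libraries 13 of the 27 fibroblast genes, 5 of the 12 contractile genes, 3 of the 13 pericyte genes and 2 of the 10 inflammatory genes were higher, against 7.18% of all genes, and with the mouse code as a covariate 3, 0, 1 and 1 were, against 6.21%.

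The ligands and receptors of these pathways were described in the same way. None of the 4 PDGF ligands had an unadjusted p under 0.05 in the average, where 13.7% of all genes were higher, with Pdgfb, the ligand of Pdgfrb, at 0.41 ± 0.24 and Pdgfa at 0.33 ± 0.23, followed by Pdgfd at 0.21 ± 0.32 and Pdgfc at -0.055 ± 0.14. Of 8 TGF-beta genes 2 were higher, the receptor Tgfbr2 at 0.49 ± 0.19 and the ligand Tgfb3 at 0.45 ± 0.18, while Tgfbr3 and Tgfbr1 were at 0.43 ± 0.22 and 0.19 ± 0.10. Of 8 receptors for fibronectin and periostin 3 were higher, the integrin chains Itga4 at 0.99 ± 0.34, Itga5 at 0.68 ± 0.26 and Itgb5 at 0.23 ± 0.11, and Itga8 was at 0.25 ± 0.23. At the adjusted threshold edgeR called 0 genes of these 3 lists. Without both high libraries 0 of 4, 1 of 8 and 1 of 8 were higher at the unadjusted one, against 7.18% of all genes.

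Genes of other cell types of the mammary fat pad and tumour also differed. In the average, where 13.7% of all genes were higher, all 12 adipocyte markers, all 12 skeletal muscle markers, 9 of 10 macrophage and 6 of 10 endothelial markers were higher at an unadjusted p under 0.05, while 0 of 6 T cell markers and 1 of 7 myoepithelial markers were, 1 of 10 luminal markers was lower, and 5 of 8 proliferation markers were lower, against 9.22% of all genes. Without both high libraries 0 of the 12 adipocyte markers, 5 of the 12 muscle, 7 of the 10 macrophage and 1 of the 10 endothelial markers were higher, against 7.18% of all genes. The summed level of the adipocyte markers ran from 99 to 637 CPM in vehicle, from 118 to 9727 with KCL-HO-1i alone, from 65 to 491 with KCL-HO-1i/5-FU and from 65 to 14109.5 with KCL-HO-1i/gemcitabine. That of the muscle markers ran from 7.51 to 56.1, from 25.8 to 4539, from 9.51 to 67.8 and from 10.8 to 13601 CPM. Of the 12 adipocyte markers 7 were highest in KCL-HO-1i/gemcitabine replicate 2 and 5 in KCL-HO-1i replicate 4. Among the 5 were Fabp4 at 3895 CPM and Plin1 at 587 CPM. Within its group KCL-HO-1i replicate 4 also held the highest Pdgfrb, Fap, Dcn, Fn1, Acta2 and Rgs5. The highest Pdgfra, Thy1, Postn and Lum of that group lay in replicate 3. KCL-HO-1i/5-FU replicate 3 and KCL-HO-1i/gemcitabine replicate 2 were unlike in adipocyte and muscle markers. The former, with Fap at 72 CPM and Postn at 2329.9 CPM, held 491 CPM of adipocyte and 9.51 CPM of muscle markers, both within the vehicle range. The latter, with Dcn at 581 CPM and Thy1 at 66.4 CPM, held 14109.5 and 13601 CPM. Luminal markers were at 2763 and 2849 CPM in these libraries, the lowest of the 30. Over the 30 libraries Dcn and Thy1 followed the summed adipocyte markers with r of 0.87 and 0.83. Lum and Postn followed the macrophage markers with 0.85 and 0.85, and Rgs5, Fap and Pdgfrb the endothelial markers with 0.89, 0.86 and 0.82. These are the highest r of each gene, and most of them followed other lists as well. With the endothelial markers Dcn and Thy1 had r of 0.79 and 0.79, and Lum and Postn 0.71 and 0.72. With the macrophage markers Fap had 0.76. The r of the 10 genes with the luminal markers was negative for each, from -0.77 for Pdgfrb and -0.75 for Acta2 to -0.47 for Lum. The part of fat, muscle, vessels or epithelium in the values of the 10 genes was not tested.

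**Figure D4:**
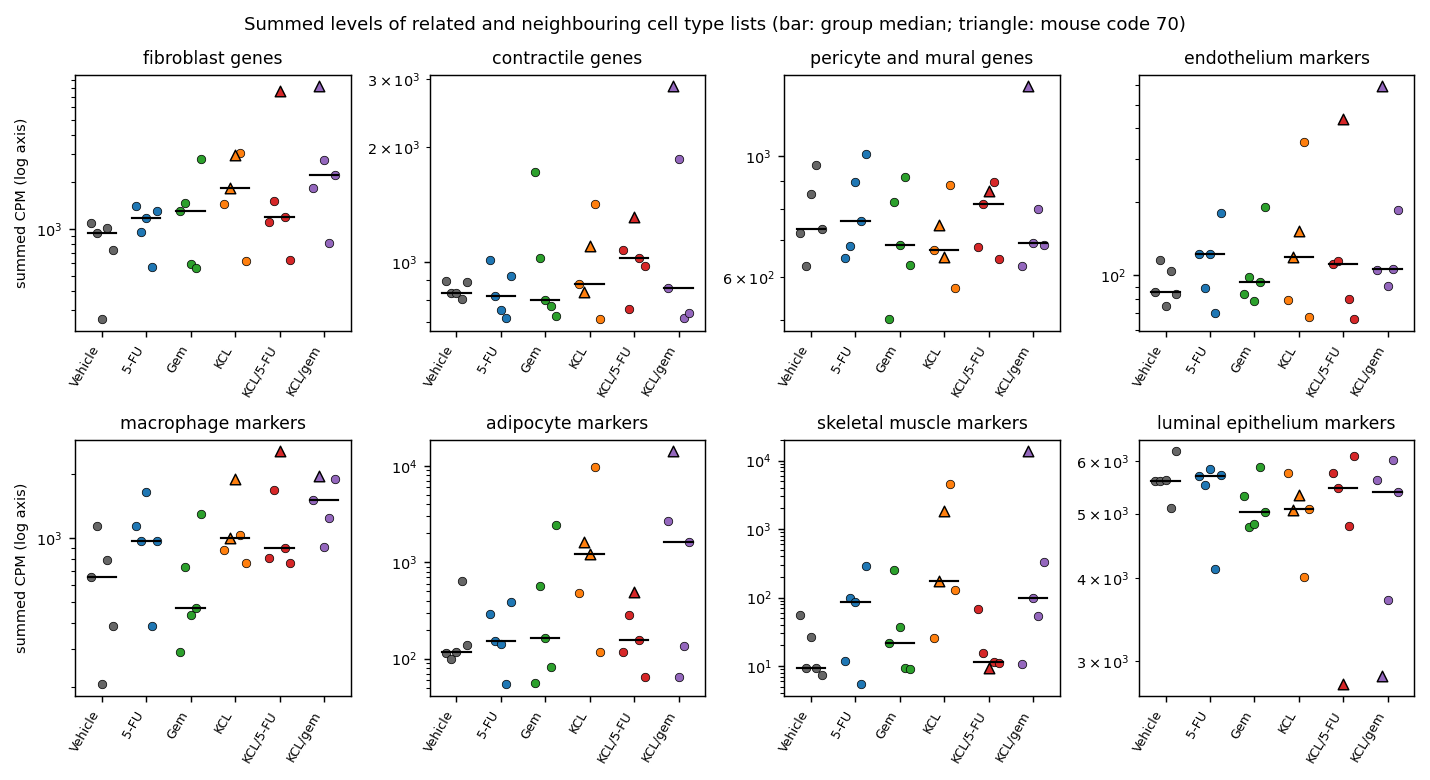
Summed CPM of 8 gene lists in each library (vertical axis, CPM on a log axis; horizontal axis, 6 groups of 5 libraries; points are libraries, bars are group medians, triangles are mouse code 70). Fibroblast genes reach 7628 and 8196 CPM in the 2 high libraries, whose adipocyte sums are 491 and 14109.5 CPM.

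Some mouse codes were shared by libraries with and without KCL-HO-1i, which allowed a few comparisons within a code. There were 3 such codes, 69, 74 and 84, with 4 pairs of libraries. Pdgfra and Fn1 were higher with KCL-HO-1i in 4 of 4 pairs, Pdgfrb, Postn, Dcn, Lum and Acta2 in 3 of 4, and Fap, Thy1 and Rgs5 in 2 of 4. In code 69 Dcn was at 23.1 CPM with 5-FU (replicate 4) and 224 with KCL-HO-1i (replicate 4), which differ in treatment beyond KCL-HO-1i. In code 84 Dcn was at 27.2 CPM with vehicle (replicate 1) and 159 with KCL-HO-1i/gemcitabine (replicate 5), which differ likewise. In code 74, which compares like with like, Dcn was at 58.2 CPM with 5-FU (replicate 5) and at 80.3 and 22.5 with KCL-HO-1i/5-FU (replicates 2 and 4), and Fap was at 4.52 against 4.08 and 3.04 CPM.

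**Figure D5:**
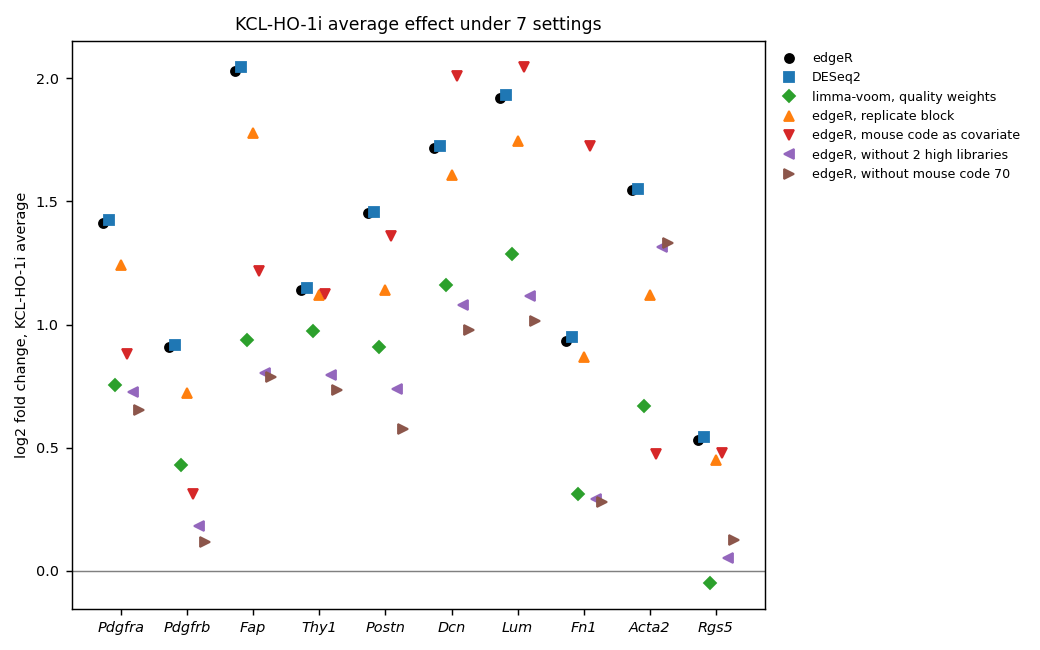
Log2 fold change of the KCL-HO-1i average for each of the 10 genes (horizontal axis) under 7 settings (vertical axis, log2 scale; 1 symbol per setting). The value of Fap is 2.03 in edgeR and 0.80 without the 2 high libraries, and that of Rgs5 in limma-voom is -0.049, the 1 point below 0.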

How the data were processed

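RNA of 30 whole mammary tumours (6 groups of 5 mice) was sequenced with a stranded kit. Per the submitters' processing notes the reads were checked with FastQC 0.11.9, aligned with STAR 2.7.9a to mm10 and quantified with Salmon 1.9.0, and the authors then used DESeq2. The deposited file holds expected counts per gene, estimated by the authors from transcripts and not scaled by length or depth: library totals differ, and 38.0% of the values are not whole. The text of the study calls them TPM counts, but they sum to at least 10067577 per library.

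The estimated counts were rounded, genes under a minimum count of 10 were dropped (filterByExpr of edgeR), and 13663 of 21841 genes were fitted over all 30 libraries with the quasi-likelihood test of edgeR 4.0.16 in R 4.3.3, with TMM scaling and Benjamini-Hochberg adjustment over all tested genes. The common biological coefficient of variation was 0.401. CPM used the effective library size, and log2 CPM a prior count of 2. DESeq2 1.42.0, limma 3.58.1 (voom with sample weights), other scaling, no filter, a replicate number, a mouse code covariate and each library left out in turn were tried as alternatives, and the closing section gives their effect. Data were also simulated for the KCL-HO-1i average over 13663 genes. In them edgeR recovered 74% of 100 genes changed by 2-fold and 94% of 100 changed by 4-fold. Of its 178 calls there 10 were false, against 22 of 196 in DESeq2 and 11 of 173 in limma-voom. Whether these rates hold for the 10 genes, which share their high values in few libraries, was not tested.

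The 10 genes, the lists and the tests were chosen with earlier results of these data known. Besides the 10, the text names the 3 genes most like each by Pearson's r and up to 4 genes of each list by p in the average. Genes named otherwise (Tagln, Actg2, and Des among the contractile genes, Oxtr and Epcam) were chosen after their values were seen. No libraries were repeats of each other: the lowest chi-square per degree of freedom over 60 pairs within groups was 19.9. The replicate numbers do not pair the libraries, since residuals of 75 same-numbered pairs had a mean r of 0.0028. The 13 mouse codes are the numbers in the labels with their suffixes left off, and no full label occurs again. Of the codes, 3 hold libraries both with and without KCL-HO-1i. Sequences are from RefSeq promoter tables of GRCm38.p6, which is the same assembly as mm10.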

Additional observations from a re-analysis of the deposited data

Results flagged for a closer look

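In 22 of 60 sets of 5 libraries, 1 for each gene and group, the highest library stood apart by a gap of more than 0.71 of the range of its group, a limit that chance passes in about 1 set in 20 where values are normally distributed and independent, which skewed CPM of correlated genes are not. All 22 were at the high end. In KCL-HO-1i/5-FU replicate 3, 8 of the 10 genes were so placed, Pdgfra at 157 CPM, Pdgfrb at 124, Fap at 72, Postn at 2329.9, Lum at 262, Fn1 at 435, Acta2 at 112 and Rgs5 at 129. In KCL-HO-1i/gemcitabine replicate 2, 8 were, Pdgfra at 119.7 CPM, Pdgfrb at 65.2, Fap at 32.4, Thy1 at 66.4, Dcn at 581, Lum at 306, Fn1 at 489 and Rgs5 at 142. In gemcitabine replicate 5 Fap at 12.2 CPM, Thy1 at 22.7, Postn at 516 and Lum at 89.3 stood apart. Acta2 at 658 CPM in KCL-HO-1i/gemcitabine replicate 3 and Rgs5 at 103 CPM in KCL-HO-1i replicate 4 completed the set.

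The effect of KCL-HO-1i differed with and without a drug at an unadjusted p under 0.05 for Thy1 and 5-FU (a log2 difference of -1.56, adjusted p 0.571 in edgeR) and for Acta2 and gemcitabine (2.24, adjusted p 1 in edgeR). Neither passed an adjusted p under 0.05. The Acta2 difference includes KCL-HO-1i/gemcitabine replicate 3.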

How the results depend on the processing

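Of 530 log2 fold changes of the 10 genes under alternatives other than leaving out 1 library, 20 turned their direction, 16 of them with the mouse code as a covariate. In that fit 5-FU against vehicle gave Pdgfra -0.26, Postn -0.22, Fn1 -0.88, Acta2 -2.01 and Rgs5 -0.33. Gemcitabine against vehicle gave Pdgfra -0.61, Thy1 -0.48, Postn -1.25, Dcn -0.59, Lum -0.37, Fn1 -1.08, Acta2 -2.35 and Rgs5 -0.39. KCL-HO-1i gave Acta2 -2.70 and Rgs5 -0.29, and KCL-HO-1i/5-FU gave Acta2 -0.90. Limma-voom turned Rgs5 to -0.049 in the average and -0.063 in KCL-HO-1i. Leaving out both high libraries, or the 4 of mouse code 70, alternatives chosen after seeing the data, turned Rgs5 in KCL-HO-1i/5-FU to -0.074 and -0.071. Of 1800 values with 1 library left out 8 turned, with ranges of -0.093 to 0.25 for Rgs5 in 5-FU, -0.061 to 0.51 for Pdgfra, -0.071 to 1.01 for Postn and -0.022 to 0.24 for Rgs5 in gemcitabine, -0.17 to 0.57 for Rgs5 in KCL-HO-1i and -0.071 to 0.79 with KCL-HO-1i/5-FU. The cause was not tested.

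At the adjusted threshold, where edgeR called 0 of the 10, DESeq2 called 1 with KCL-HO-1i alone, 1 with KCL-HO-1i/5-FU, 5 in KCL-HO-1i/gemcitabine, 8 in the average and 1 in KCL-HO-1i/gemcitabine against gemcitabine, and limma-voom 4 in KCL-HO-1i/gemcitabine. With 1 library left out edgeR called 0 to 7 in the average and 0 to 2 in KCL-HO-1i/gemcitabine. At an unadjusted p under 0.05 the counts with 1 library left out were 3 to 6 with KCL-HO-1i alone, 0 to 9 with KCL-HO-1i/5-FU, 4 to 9 in KCL-HO-1i/gemcitabine and 7 to 10 in the average. With the mouse code as a covariate they were 0, 0, 0 and 1. In KCL-HO-1i/5-FU the count was 0 in limma-voom, beside 2643 of all genes in either direction. The count was also 0 there without both high libraries (1381 of all genes) and without mouse code 70 (1270). In the average it was 2 without mouse code 70 (1549). With the replicate block, a fit in which numbers that do not pair the libraries stand as a term, the counts were 4, 3, 6 and 8 against 5, 8, 8 and 9, and the block made no adjusted call. The 3 of KCL-HO-1i/5-FU stood beside 2067 of all genes in either direction. The shares for the other counts of that fit are not given here.

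On depth, 3 reads were worth 0.215 to 0.302 CPM, and of the values of the 10 genes in 30 libraries 1 lay at or under 3 reads, Lum in vehicle replicate 3 with 0 reads.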
